A study of Mus musculus and Homo sapiens with 10 samples.

Results

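Broad H3K4me1 domains that lack a broad H3K122ac island were examined in K562 cells, a human erythroleukaemia line. A domain was an island of the deposited H3K4me1 list of 15000 bp or more, and it was kept when it shared no base with an H3K122ac island of 10000 bp or more. This gave 1353 domains of the 113669 H3K4me1 islands. They were 1.19% of the islands and 8.04% of their summed length, 29.4 of 365.1 Mb. The other 692 domains of 15000 bp or more met a broad H3K122ac island and were used for comparison, as were 15859 shorter H3K4me1 islands of 5000 to 14800 bp without broad H3K122ac. The domains were chosen by the measured lengths of H3K4me1 and H3K122ac islands, so values of these 2 marks are given as a description.

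The series mapped histone marks by native chromatin immunoprecipitation, in which chromatin cut with micrococcal nuclease is pulled down with an antibody to a modified histone. The K562 cells were untreated and at passage 14, and each of H3K4me1, H3K122ac and H3K27ac had 1 library, beside 1 input library. The 6 libraries of mouse embryonic stem cells were not used here. With 1 library per mark no difference could be set against replicates, and none was tested. Shares carry Wilson 95% intervals and medians carry 95% intervals from ranks. Both cover counting error only, since neighbouring domains are not independent. The identity of the cells was not checked against marker genes, and no domain is named by a gene, since an annotation of this human build was not used here.

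Monomethylation of lysine 4 of histone H3 is laid down at enhancers by the methyltransferases MLL3 and MLL4, before or together with activation, and it spreads widely around strong enhancer clusters. Acetylation of lysine 27 in the H3 tail, by CBP and p300, marks active enhancers and promoters. The lysine of H3K122ac lies in the globular domain of H3, at the face that contacts DNA near the centre of the nucleosome, and it is also acetylated by p300 and CBP. The data therefore set a mark of enhancer chromatin against acetylation of the H3 tail and of the H3 core.

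Nearly all of the 1353 domains were acetylated, and most of their length lay under H3K27ac. An H3K27ac island was met by 1352 domains (99.9%; 99.6 to 100%), against 70.0% of all H3K4me1 islands. An H3K122ac island, by the rule always under 10000 bp, was met by 1245 domains (92.0%; 90.5 to 93.3%), against 54.2% of all H3K4me1 islands. Longer islands have more room to meet another island, so these shares are not comparable at equal length. No domain lacked both acetylations (0 of 1353, which allows a share of up to 0.222%), against 22.2% of all H3K4me1 islands. H3K27ac without H3K122ac was found in 108 domains (7.98%; 6.65 to 9.55%), against 23.5% of all H3K4me1 islands. The reverse was found in 1 domain, chr15:40641601-40660000 (hg19), named after its values were seen.

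By length, the 2 acetylations differed widely in these domains. H3K27ac islands covered 77.5% of the summed length and H3K122ac islands 35.4%. The 2 marks overlapped over 32.7% of the length, H3K27ac stood without H3K122ac over 44.7%, H3K122ac without H3K27ac over 2.67%, and 19.9% carried neither. In domains with broad H3K122ac the marks overlapped over 72.2% of the length, and H3K27ac stood without H3K122ac over 14.8%. In the shorter islands without broad H3K122ac these shares were 34.8% and 31.1%. Where the 1353 domains carried H3K122ac, they mostly carried H3K27ac as well. Of the H3K122ac-covered length, 92.5% lay under H3K27ac, against 92.1% in domains with broad H3K122ac and 82.5% in the shorter islands. H3K27ac also covered most of the length without H3K122ac. That share was 69.2% in the 1353 domains, 68.7% in domains with broad H3K122ac and 53.8% in the shorter islands. Of the H3K27ac-covered length, 42.2% lay under H3K122ac, against 83.0% in domains with broad H3K122ac and 52.8% in the shorter islands.

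**Figure D1:**
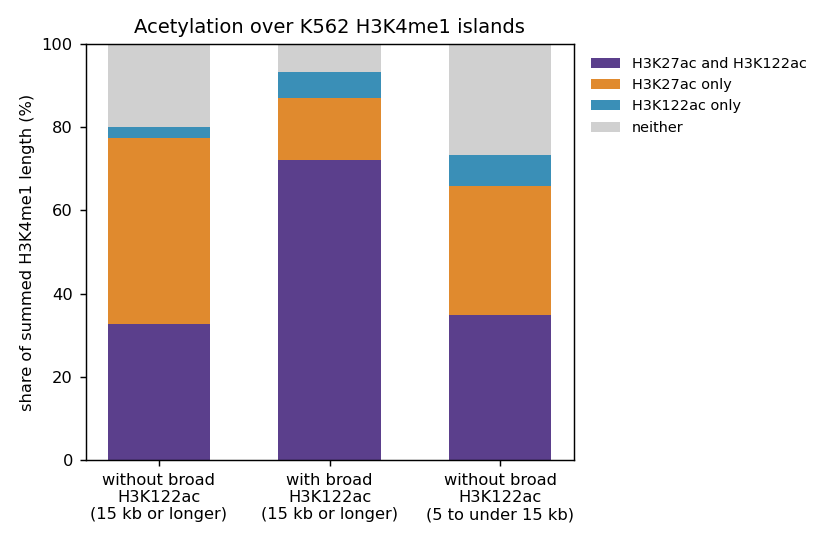
Shares of the summed H3K4me1 length (%, vertical axis) that lay under both acetylations, H3K27ac only, H3K122ac only or neither, in domains of 15000 bp or more without broad H3K122ac, in domains with broad H3K122ac, and in shorter islands without it. The H3K27ac-only part was 44.7%, 14.8% and 31.1% of the length in the 3 classes.

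The wider reach of H3K27ac has to be read beside the depth of the lists. The H3K27ac list covered 314.9 Mb and the H3K122ac list 191.0 Mb, and the ratio of ChIP to background reads was 0.688 for H3K27ac and 0.258 for H3K122ac. When only the H3K27ac islands of highest fold were kept, up to the length of the H3K122ac list (folds of 2.16 or more), H3K27ac covered 59.6% of the length of the 1353 domains, still above the 35.4% for H3K122ac. In domains with broad H3K122ac the order was the other way, with 74.2% under H3K27ac and 78.4% under H3K122ac. Over all H3K4me1 islands both marks then covered nearly the same share, 41.7% and 41.9%. More length under H3K27ac than under H3K122ac was found in 1217 of the 1353 domains (89.9%; 88.2 to 91.4%), against 43.1% of all H3K4me1 islands. With the lists of equal length it was found in 1020 domains (75.4%; 73.0 to 77.6%), in 258 of 692 domains with broad H3K122ac (37.3%) and in 26.6% of all H3K4me1 islands. This choice was made after seeing the data. Equal list length does not remove the rule, which chose both kinds of domain by the length of their H3K122ac islands. The rule therefore bears on the order of the 2 marks in each kind, and its part was not tested.

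The domains had a median length of 19000 bp (18600 to 19400 bp), with quartiles at 16600 and 23800 bp. Domains with broad H3K122ac were somewhat longer, with a median of 21600 bp (20800 to 22800 bp). Just inside the length limit, 52 domains measured 15000 bp, and just outside it 54 islands without broad H3K122ac measured 14800 bp. At the H3K122ac limit, 20 domains held an H3K122ac island of 9800 bp as their longest, and 19 domains were left out for one of 10000 bp. Among the domains just inside was chr1:27880001-27901800, whose 3 H3K122ac islands covered 70.6% of it. Its neighbour chr1:27902601-27929200, 800 bp away, met the end of the same H3K122ac island of 9800 bp and had 4.51% of its length under H3K122ac and 82.7% under H3K27ac. Just outside was chr1:27104601-27122000, with a single H3K122ac island of 10000 bp that covered 57.5% of it and H3K27ac over 87.4%. The class is therefore cut from a continuous range, and 446 of the 1353 domains (33.0%; 30.5 to 35.5%) had H3K122ac over 10000 bp or more in sum, split over several islands, against 1.49% of all H3K4me1 islands.

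The longest domain, chr10:22892601-23002200, spanned 109600 bp and was the longest island of the whole H3K4me1 list. It held 16758 H3K4me1 reads over 5196 background reads, a fold of 5.56 by the authors' caller. Its 17 H3K27ac islands covered 92.3% of it, and its 13 H3K122ac islands, the highest number in any of the 1353 domains, covered 35.8%. The H3K122ac islands were 1000 to 8800 bp long, and they were far from equal. At chr10:22904001-22905800 the H3K122ac fold was 21.2, from 553 reads over 101 background reads, while 2 islands further along had folds of 1.91. H3K27ac folds ran between 2.91 and 8.23 along the same domain. H3K27ac was thus nearly continuous here, while H3K122ac stood as separate islands.

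The other 4 domains among the longest 5 also had more length under H3K27ac than under H3K122ac, to different degrees. At chr16:81479601-81545600, of 66000 bp, a single H3K27ac island ran over 47200 bp and H3K27ac covered 97.0% in all, while 7 H3K122ac islands of at most 8600 bp covered 62.1%. At chr12:104870401-104935200, of 64800 bp, 16 H3K27ac islands covered 87.3% and 6 H3K122ac islands 27.5%. At chr1:233750601-233814000, of 63400 bp, 15 H3K27ac islands covered 89.3% and 10 H3K122ac islands 63.7%. At chr7:139415001-139476800, of 61800 bp, 11 H3K27ac islands covered 82.8%, and 1 H3K122ac island at the very end covered 2.59%. H3K27ac was weak there, with folds of 1.33 to 2.81, and background was high at 92.8 reads per kb. The single H3K122ac island had a fold of 9.10 and lay where the H3K27ac fold was highest.

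**Figure D2:**
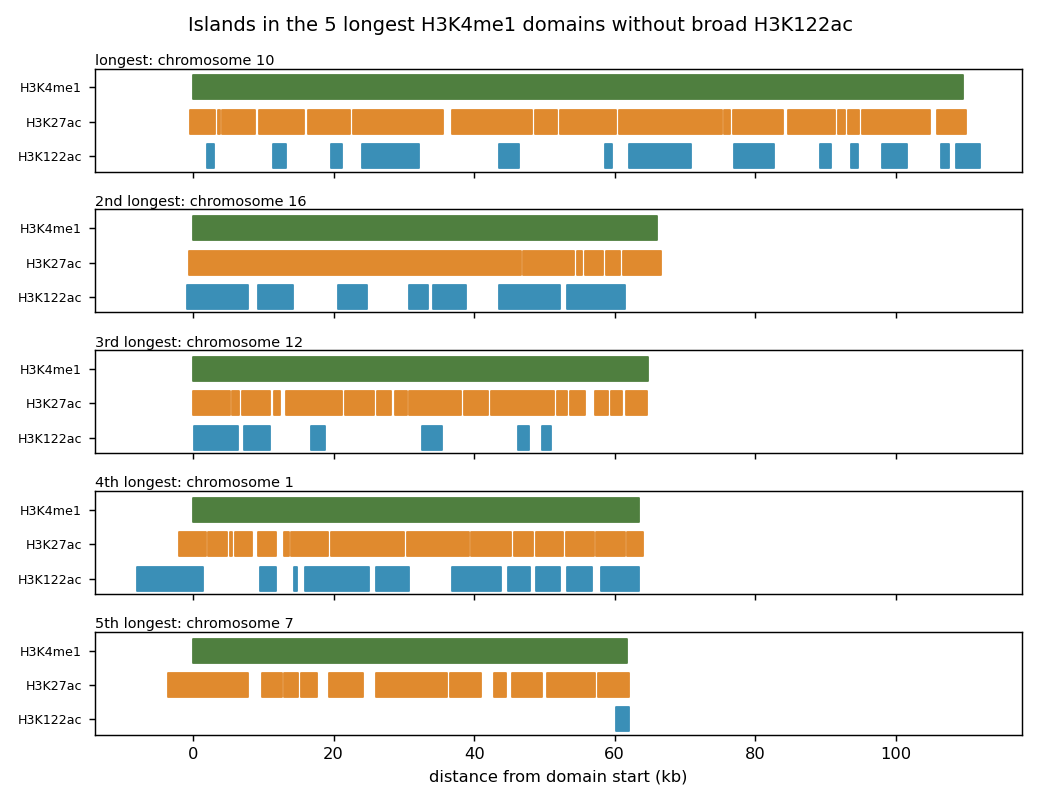
Islands of H3K4me1, H3K27ac and H3K122ac (rows) in the 5 longest domains without broad H3K122ac, drawn to scale by distance from the start of each domain (kb). H3K27ac covered 82.8% to 97.0% of these domains, and H3K122ac 2.59% to 63.7%, in islands of at most 9400 bp. The rule bars H3K122ac islands of 10000 bp or more.

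Among the 1353 domains the share of length under H3K122ac spread over almost the whole range, while that under H3K27ac was mostly high. The median domain had H3K27ac over 79.7% of its length (78.8 to 80.9%; quartiles 69.4 and 87.7%) and H3K122ac over 33.7% (31.4 to 35.9%; quartiles 13.6 and 55.6%). H3K27ac covered at least 50% of the length in 1263 domains (93.3%; 91.9 to 94.6%), against 55.5% of all H3K4me1 islands, and at least 90% in 246 (18.2%), against 21.7%. H3K122ac covered at least 50% in 419 domains (31.0%; 28.6 to 33.5%), against 38.9% of all H3K4me1 islands, and under 10% in 275 (20.3%), against 47.0%. The share of all H3K4me1 islands is of mixed use here, since a short island is often covered either wholly or not at all. The 108 domains with no H3K122ac had a median of 69.3% of their length under H3K27ac, and the 133 domains with H3K122ac over more than 75% had a median of 83.3%. Across the 1353 domains the 2 shares had a Spearman correlation of 0.26, given as a description, since both lists share a background library.

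**Figure D3:**
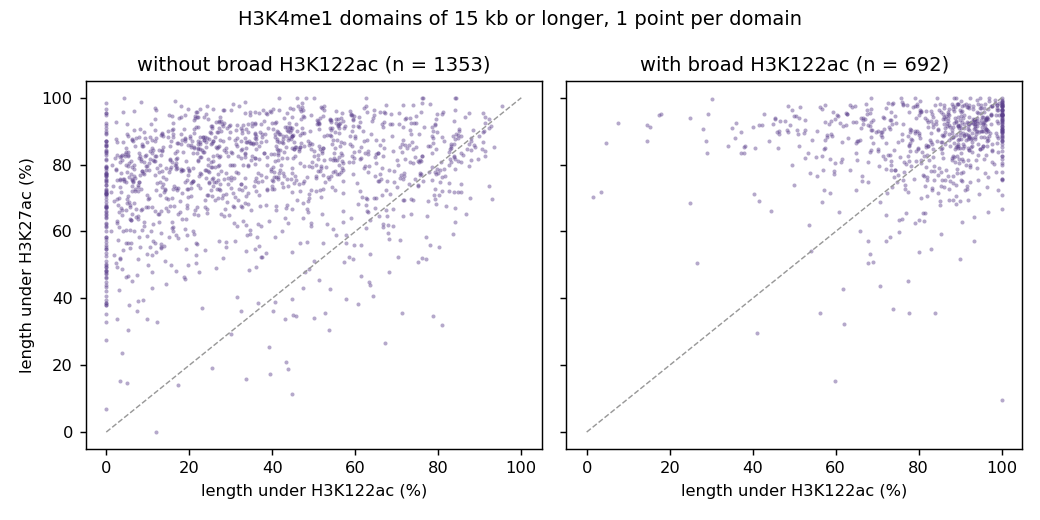
Share of length under H3K27ac (%, vertical) against that under H3K122ac (%, horizontal), 1 point per domain, for the 1353 domains without broad H3K122ac (left) and the 692 with it (right); the dashed line marks equal shares. Points on the left panel lie above the line in 1217 domains, and 108 lie at 0% H3K122ac.

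The extremes of these shares show what the class contains. The largest H3K122ac shares were 95.3% at chr6:14462801-14480000, 93.3% at chr1:234713401-234728400, 92.9% at chr21:16045001-16064800 and 92.7% at chr10:73501801-73518200. Each of these was covered by 2 H3K122ac islands of at most 9800 bp. At the chromosome 6 domain they measured 9800 and 7200 bp, with folds of 3.34 and 9.89, and stood 800 bp apart, the smallest gap between islands in that list. Such domains were kept because of a single gap. Wholly under H3K27ac were, among others, chr1:32660601-32675600, chr11:5284601-5314800, chr22:22289401-22308600 and chr4:10249601-10265800. At the chromosome 11 domain, 1 H3K27ac island ended at the same bases as the H3K4me1 domain and had a fold of 5.03, beside an H3K4me1 fold of 6.36. Its 3 H3K122ac islands of 7200, 8600 and 9600 bp covered 84.1%, with folds of 4.14, 4.24 and 4.67, and were 800 and 1000 bp apart.

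At the other end stood domains with little or no H3K122ac. The longest without any, all picked after their values were seen, were chr12:62657001-62693800 (36800 bp), chr3:72437401-72473200 (35800 bp) and chr3:176819201-176852800 (33600 bp). H3K27ac covered 72.8%, 38.0% and 55.4% of them, in 11, 9 and 12 islands. The H3K27ac islands of the chromosome 12 domain had folds of 2.77 to 8.12, and its H3K4me1 fold was 7.57, from 4091 reads over 931 background reads. In this picked domain H3K122ac was thus absent beside high folds of both other marks. Its background was low, at 25.3 reads per kb against a median of 51.5 over the 1353 domains, and background is the denominator of these folds. The 108 domains without H3K122ac nevertheless had lower values as a group, with a median H3K4me1 fold of 3.48 and a median highest H3K27ac fold of 3.34. In the 281 domains with H3K122ac over 50 to 75% of their length these medians were 4.37 and 4.73. Their background also differed, at 45.6 and 54.7 reads per kb, and the part of this in the difference was not tested.

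H3K27ac was low in few of the domains. The domain with no H3K27ac island, chr15:40641601-40660000, had an H3K4me1 fold of 1.73 from 1075 reads over 1070 background reads, and 2 H3K122ac islands with folds of 5.94 and 3.14 over 12% of its length. At chr1:206907801-206925400 H3K27ac covered 6.82% and no H3K122ac was called, and at chr6:164138201-164157400 H3K27ac covered 11.5% and H3K122ac 44.8%. All 3 had H3K4me1 folds under 2. Less length under H3K27ac than under H3K122ac was found in 130 domains (9.61%; 8.15 to 11.3%), against 24.4% of all H3K4me1 islands. An example is chr1:164652001-164703400, of 51400 bp, where 10 H3K122ac islands covered 68.1% and 12 H3K27ac islands 47.9%.

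Broad H3K27ac also occurred without broad H3K122ac. An H3K27ac island of 10000 bp or more was held by 292 of the 1353 domains (21.6%; 19.5 to 23.9%), by 378 of 692 domains with broad H3K122ac (54.6%; 50.9 to 58.3%), and by 1.34% of all H3K4me1 islands. H3K27ac islands were called with a smaller allowed gap than H3K122ac islands, 200 against 600 bp, which by itself makes them shorter. An unbroken stretch of at least 5000 bp under H3K27ac with no H3K122ac was found in 310 of the 1353 domains (22.9%; 20.8 to 25.2%), in 46 domains with broad H3K122ac (6.65%; 5.02 to 8.75%) and in 0.794% of all H3K4me1 islands. Stretches of 10000 bp or more occurred in 36 of the 1353 domains, in 6 domains with broad H3K122ac and in 0.0519% of all H3K4me1 islands. The longest of these stretches, chosen after their values were seen, measured 26800 bp within chr7:127493001-127542800, 19000 bp within chr7:139648001-139678000 and 17600 bp within chr9:123605801-123624200. In the first, the H3K27ac island over the stretch was 32200 bp long with a fold of 2.18, and the 3 H3K122ac islands had folds of 1.97, 2.29 and 4.14. Background was high in all 3 domains, at 80, 83.0 and 125.4 reads per kb, against a median of 51.5.

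H3K27ac did differ between the 1353 domains and those with broad H3K122ac. The median share of length under H3K27ac was 79.7% in the 1353 domains and 89.4% (88.4 to 90.1%) in domains with broad H3K122ac, a difference of -9.69 percentage points. The shorter islands without broad H3K122ac had a median of 70.4% (70.0 to 71.0%). The difference was present in every length class. At 15000 to 16800 bp the medians were 77.9% in 381 domains without and 88.5% in 124 domains with broad H3K122ac, and at 30000 bp or more they were 84.6% in 162 and 91.6% in 182 domains. The median was lower in the domains without broad H3K122ac on 23 of 23 chromosomes, with differences of -20.6 to -0.277 percentage points. Background moved with it: median background was 51.5 reads per kb in the 1353 domains and 60.3 in domains with broad H3K122ac. Within 4 classes of background density, the medians were 74.7% in domains without and 84.6% in domains with broad H3K122ac in the lowest class, and 86.7% and 90.3% in the highest. The difference had the same direction in all 4 classes and was smallest at the highest background.

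H3K4me1 enrichment was somewhat lower in the 1353 domains than in domains with broad H3K122ac, and higher than in the shorter islands. The median H3K4me1 fold was 4.10 (3.99 to 4.2) in the 1353 domains, 4.36 (4.23 to 4.47) in domains with broad H3K122ac, 3.36 (3.33 to 3.39) in the shorter islands and 2.72 over all H3K4me1 islands. As reads per kb in excess of background, the median was 156.8 (153.1 to 160.6) in the 1353 domains, 193.6 (187.0 to 198.5) in domains with broad H3K122ac and 113.6 in the shorter islands. Background was 51.5, 60.3 and 50.3 reads per kb in these classes. A fold of 3 or more was reached by 1114 of the 1353 domains (82.3%; 80.2 to 84.3%), against 42.4% of all H3K4me1 islands. Domain length came from the same list as these folds and chose the domains. The highest folds were 9.0 at chr9:27421601-27444200, 8.48 at chr18:45433001-45455200 and chr14:70079201-70107000, 8.45 at chr13:41566601-41590800 and 8.08 at chr9:27466801-27491000. The 2 domains on chromosome 9 lay 22600 bp apart and had 20.4 and 19.6 background reads per kb, so their folds rest on 461 and 475 background reads. In the second, chr9:27482001-27483000 had an H3K27ac fold of 20.1 over 19 background reads, the highest in the 1353 domains among islands with at least 10, and chr9:27482001-27484400 had an H3K122ac fold of 18.6 over 45 background reads. H3K122ac covered 16.8% and 35.5% of these 2 domains.

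The strength of H3K122ac islands, set against that in domains with broad H3K122ac, depended on the measure. The highest H3K122ac fold in a domain had a median of 8.53 (8.17 to 8.90) over the 1245 domains with H3K122ac and 8.27 (7.97 to 8.65) in domains with broad H3K122ac. Over all H3K122ac islands the median fold was 5.04 (4.88 to 5.24) in the 1353 domains, 5.69 (5.47 to 5.97) in domains with broad H3K122ac and 5.93 (5.84 to 6.04) in the shorter H3K4me1 islands. The islands differed in length, with medians of 3000, 8000 and 3000 bp. At matched island length the order of the 2 kinds of domain was the other way. H3K122ac islands of 4000 to 6800 bp had a median fold of 6.59 (6.19 to 6.92) in the 1353 domains, 4.65 (4.28 to 5.30) in domains with broad H3K122ac and 7.45 (7.28 to 7.6) in the shorter H3K4me1 islands. At 2000 to 3800 bp the medians were 4.59, 3.38 and 6.17. Domains with broad H3K122ac also held 741 islands of 10000 bp or more, with a median fold of 7.44, which the rule bars from the other 2 classes. Their shorter H3K122ac islands thus lay in domains that also met a broad one. The part of this selection in the order was not tested. At both lengths H3K122ac islands of the 1353 domains were weaker than those in shorter H3K4me1 islands, and their background was slightly higher, at 56.4 against 52.5 reads per kb for 4000 to 6800 bp. Of the 3228 H3K122ac islands that met the 1353 domains, 3190 met H3K27ac (98.8%; 98.4 to 99.1%), against 78.1% of all H3K122ac islands. The 38 others had a median fold of 2.09. The share of H3K122ac islands that met H3K27ac was the same in domains with broad H3K122ac (98.8%). It was slightly lower in the shorter H3K4me1 islands (95.8%), so a high share was not particular to the 1353 domains. H3K122ac islands outside H3K4me1 islands met H3K27ac far less often and lower the share over all.

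The H3K27ac islands inside the domains differed in strength and length between those with and without H3K122ac. Of 7628 H3K27ac islands that met the 1353 domains, 3543 met H3K122ac (46.4%; 45.3 to 47.6%), against 41.9% of all H3K27ac islands. The share was higher in domains with broad H3K122ac (84.5%) and in the shorter islands (57.3%). It was 8.60% for H3K27ac islands outside H3K4me1 islands, which lower the share over all. In the 1353 domains, those with H3K122ac were stronger and longer, with a median fold of 3.34 (3.28 to 3.41) and 3600 bp at the median. The 4085 without it had a median fold of 2.39 (2.36 to 2.42) and 1400 bp. Background was similar, at 57.2 and 55.0 reads per kb. Median folds with and without H3K122ac were 3.12 and 2.27 in domains with broad H3K122ac, and 3.08 and 2.22 in the shorter islands. In the 1353 domains the share with H3K122ac was between 27.7% and 32.6% in deciles 1 to 6 of H3K27ac fold. It was 48.6% in decile 8, 62.5% in decile 9 and 83.3% (81.0 to 85.4%) in decile 10. In domains with broad H3K122ac it was 66.3% in decile 1 and 98.1% in decile 10, and in the shorter islands 44.3% and 91.3%. At each decile of fold the share was lowest in the 1353 domains among these 3 classes. The rule removes long H3K122ac islands from this class, and its part in these shares was not tested. Within the 1353 domains the share also rose with H3K27ac island length. It was 22.4% under 1000 bp, 49.8% at 2000 to 3800 bp and 91.8% at 10000 bp or more. Median island length was 1800 bp in decile 1 and 3600 bp in decile 10. Longer islands have more room to meet another island, and the parts of fold and length were not tested.

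**Figure D4:**
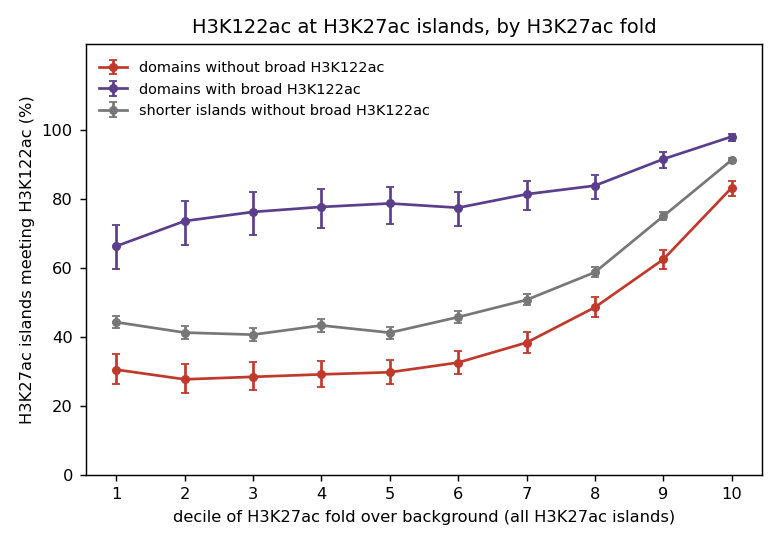
Share of H3K27ac islands that met an H3K122ac island (%, vertical axis) by decile of H3K27ac fold over background (horizontal axis, 10 is the strongest), in domains without broad H3K122ac, domains with it, and shorter islands without it; bars are Wilson 95% intervals. In domains without broad H3K122ac the share was 30.5% in decile 1 and 83.3% in decile 10.

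Along the domains, acetylation was nearly level. In the 1353 domains cut into 20 bins of equal length, the mean share under H3K122ac was 37.5% in the 4 middle bins and 31.2% in the 2 outermost, a difference of 6.30 percentage points, and for H3K27ac it was 77.9% and 72.6%. In domains with broad H3K122ac, H3K122ac covered 87.9% in the 4 middle bins against 64% in the 2 outermost, a difference of 23.8 points. H3K27ac likewise covered 90.3% against 77.2%. Those domains, of median length 21600 bp, each met an H3K122ac island of 10000 bp or more, which the rule bars from the 1353 domains. The part of the rule in this contrast was not tested. Of the H3K122ac islands in the 1353 domains, 2747 of 3228 lay wholly inside, and 465 domains (34.4%) had an H3K122ac island that crossed an end. An H3K27ac island crossed an end in 827 domains (61.1%). H3K27ac also covered more of the length, 77.5% against 35.4%. Crossings were counted in the 1353 domains only, so whether they are unusual among H3K4me1 islands is not known.

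**Figure D5:**
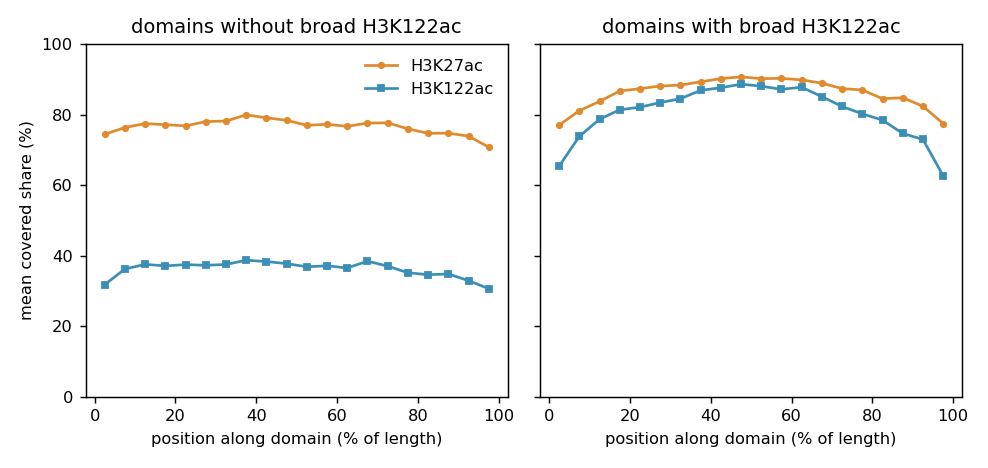
Mean share of length under H3K27ac and H3K122ac (%, vertical axis) by position along the domain (% of its length, horizontal axis, in 20 bins) for domains without (left) and with (right) broad H3K122ac. Without broad H3K122ac, H3K122ac stayed between 30.6% and 38.7%; with it, between 62.7% and 88.6%.

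As the domains grew longer, H3K122ac islands became more numerous but tended, weakly, to cover less of them. The median number of H3K122ac islands was 2 at 15000 to 16800 bp and 4 at 30000 bp or more, while the median share of length was 39.2% and 26.8%. The limit of 10000 bp on a single island is a smaller part of a longer domain, and its part in this result was not tested. H3K27ac went the other way, with median shares of 77.9% and 84.6% and a median of 5 and 8 islands. Domains with broad H3K122ac moved likewise between these classes, from 89.5% to 79.9% for H3K122ac and from 88.5% to 91.6% for H3K27ac. Over the 1353 domains, the Spearman correlation with length was -0.09 for the H3K122ac share and 0.13 for the H3K27ac share. In all, 592 of the 1353 domains (43.8%) held 3 or more H3K122ac islands, 374 (27.6%) held 2 and 279 (20.6%) held 1. In domains with broad H3K122ac these shares were 35.1%, 35.0% and 29.9%. Over all H3K4me1 islands, most of them far shorter, they were 1.24%, 4.84% and 48.2%.

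The domains lay nearer to other broad domains than the shorter islands did, and less near than domains with broad H3K122ac. The nearest other H3K4me1 domain of 15000 bp or more was a median of 73000 bp away for the 1353 domains, 45200 bp for domains with broad H3K122ac and 203800 bp for the shorter islands. It lay within 10000 bp for 335 of the 1353 domains (24.8%), against 27.6% of domains with broad H3K122ac and 9.77% of the shorter islands. Within 1000 bp it lay for 116 of the 1353 domains (8.57%), where the authors' gap setting of 600 bp decides whether 1 or 2 domains are called. Neither share was counted over all H3K4me1 islands, and the second was counted in the 1353 domains only. A broad H3K122ac island lay within 50000 bp of 294 domains (21.7%), against 16.3% of the shorter islands, and was a median of 255000 bp away.

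The balance of the 2 classes and the extent of H3K122ac varied by chromosome. Chromosome 6 had the lowest share of broad domains without broad H3K122ac, 111 of 192 (57.8%), followed by chromosome 1 with 178 of 300 (59.3%). Chromosome 13 had the highest, 18 of 20. The median share of length under H3K122ac was lowest on chromosome 7, at 16.9% over 93 domains, and highest on chromosome 14, at 52.0% over 29. H3K27ac was less variable, between 72.3% on chromosome 18 and 85.4% on chromosome 11. In bins of 20 Mb with at least 10 domains, the 2 lowest H3K122ac medians of 60 bins were adjacent on chromosome 7, 9.71% at 140 to 160 Mb over 14 domains and 12.7% at 120 to 140 Mb over 29. H3K27ac covered 80.5% and 86.6% there. Background was 63.2 and 76.8 reads per kb in these bins, against 51.5 over the 1353 domains, and its part in the result was not tested.

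High background marked a small group of domains. At 100 reads per kb or more stood 29 of the 1353 domains (2.14%), against 2.05% of all H3K4me1 islands, and 18 of them were on chromosome 22 and 4 each on chromosomes 7 and 9. Their median H3K4me1 fold was 1.51 and no fold exceeded 2.62, against a median of 4.14 in the other 1324 domains. H3K27ac covered a median of 91.4% of their length and H3K122ac 23.1%, against 79.5% and 34.1% in the others. The highest background was at chr9:133705201-133726800, with 223.1 reads per kb and a fold of 1.09, the lowest in the H3K4me1 list, followed by chr22:22884401-22900000 with 221.6 and chr22:22090601-22123000 with 215.3. K562 carries extra copies of the segments of chromosomes 9 and 22 that are joined in the BCR-ABL1 fusion. Whether these domains lie in them was not tested. Over all 1353 domains, H3K4me1 fold and background per kb had a Spearman correlation of -0.67, and background is the denominator of the fold.

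The highest folds of both acetylations rose with H3K4me1 fold in these domains, and the folds of all 3 marks share a background denominator. From the lowest to the highest of 4 equal classes of H3K4me1 fold, the median highest H3K27ac fold in a domain was 3.06, 4.06, 4.67 and 6.11, and the median highest H3K122ac fold 6.73, 7.98, 8.98 and 9.91. The share of length under each mark changed little, with medians of 77.5% and 81.1% for H3K27ac and 29.0% and 37.2% for H3K122ac in the lowest and highest class. Median background was 65.1 and 38.8 reads per kb in these classes, so the graded folds share a denominator that moved with them. With background removed by subtraction rather than division, as excess H3K4me1 reads per kb, the Spearman correlation was 0.46 with the share under H3K27ac and 0.32 with the share under H3K122ac over 1353 domains, and 0.29 with the highest H3K27ac fold and 0.04 with the highest H3K122ac fold over the domains that had one.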

How the data were processed

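The submitters' processing notes name SICER 1.1, Bowtie 0.12.8 and HOMER 4.3, and hg19 as the human build. Per the labels of the lists, islands were called in 200 bp windows at a false discovery rate of 0.01, with allowed gaps of 600 bp for H3K4me1 and H3K122ac and 200 bp for H3K27ac. Each deposited list gives whole-number read counts of the ChIP and a background library, a p-value and a q-value, and the fold (ChIP over background count, scaled by 1 library ratio), all from the authors' caller. That ratio was recomputed as constant within each list (0.581 for H3K4me1, 0.258 for H3K122ac, 0.688 for H3K27ac). Islands of different K562 lists with identical ends had identical background counts, so a background library was shared; the sources used here do not name it. Reads inside islands numbered 35562145 for H3K4me1, 18283729 for H3K122ac and 34195325 for H3K27ac; library totals are unknown.

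Overlaps of at least 1 bp were computed with Python 3.11.15, pandas 2.3.3 and scipy 1.17.1, and the interval code was checked on simulated lists. Highest folds used islands with at least 10 background reads. Excess reads per kb are scaled ChIP reads less background reads. An acetylation island that met several H3K4me1 classes was counted once, first with domains without broad H3K122ac. Domains and named regions were chosen with earlier results of these data known: by rule, those of greatest length, fold, background and acetylated share, and those at the limits. No test was run. Coordinates are 1-based.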

Additional observations from a re-analysis of the deposited data

How the results depend on the processing

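The 7 results were recomputed under 13 alternatives, 2 of them chosen after seeing the data, which gave 91 values. Of these, 53 stayed within the interval of the main value, 38 moved and 0 reversed. Some of them could not change. Island ends lie on a 200 bp grid, so an overlap of 200 bp or more gave the main values again. Settings that changed H3K27ac islands alone could not alter the number of domains, the H3K122ac values or the H3K4me1 fold. Counts, shares and folds cannot change sign, so only the difference in medians could reverse. The tally is therefore no measure of stability. For the number of domains the limit was 1.5 times the main value. For the shares of length the interval treated 200 bp windows as independent, which neighbouring windows are not. It was therefore narrow, 77.2 to 77.7% for H3K27ac and 35.1 to 35.6% for H3K122ac, and small shifts counted as moved. The number of domains, 1353, was 576 at 20000 bp or more, 2465 at 12000 bp or more, 802 at 15000 to 20000 bp and 678 when H3K122ac islands of 5000 bp or more counted as broad. Under these settings, in the same order, the H3K27ac share of length (77.5%) was 79.7%, 75.6%, 74.8% and 73.8%, the H3K122ac share (35.4%) 33.1%, 37.0%, 38.3% and 19.7%, and the median H3K4me1 fold (4.10) 4.28, 3.99, 3.95 and 3.95. With broad H3K122ac at 5000 and at 15000 bp, H3K122ac was met by 84.1% and 93.6% of domains (92.0%); at 15000 bp the shares of length were 79.0% for H3K27ac and 42.9% for H3K122ac. With acetylation islands at a q-value of at most 1e-10, the H3K27ac share was 71.5%, the H3K122ac share 32.5% and H3K122ac was met by 89.3%; with folds of 2 or more these were 63.2%, 32.7% and 90.1%, and 1.40% of domains met neither list. H3K27ac islands joined across 600 bp covered 84.0%. H3K27ac islands of highest fold with the total length of the H3K122ac list covered 59.6%, with 1.33% of domains meeting neither. H3K122ac islands joined across 1000 bp left 1102 domains, with shares of 76.2% and 29.9% and 90.2% meeting H3K122ac. The difference in median H3K27ac share between domains without and with broad H3K122ac, -9.69 points, was -7.95 at 20000 bp or more, -7.74 with joined H3K27ac, -12.8 at the stricter q-value, -16.2 at folds of 2 or more and -18.6 with lists of equal length. The cause was not tested. No paired analysis was possible because each K562 mark had 1 library and no test was run. Among islands of 2000 to 3800 bp at 40 to 65 background reads per kb, the lowest called fold was 1.33 for H3K122ac and 1.21 for H3K27ac, so weaker enrichment was not detectable.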
